A study of Macaca mulatta with 27 samples.

Results

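The genes described are those coding for voltage-gated sodium channels, voltage-gated calcium channels and potassium channels of every class. Members were taken by symbol alone (KCN followed by a letter, SCN followed by a number and A or B, and CACNA, CACNB or CACNG), and 132 of the 17967 symbols in the count tables matched. RNA was sequenced from rhesus monkey (Macaca mulatta) embryonic stem cells of the line LyonES-tGFP-(S3), kept in the primed state (6 libraries) or moved to 1 of 7 culture protocols meant to give naive or extended pluripotency (3 libraries each). The titles of the primed libraries name more than 1 set, and their count columns carry the letters J and K, 3 libraries each. What sets them apart is not stated, and all 6 were used as 1 group. The line is 1 clone, so all groups, primed included, carry the same tauGFP transgene driven by the CAG promoter and the same STAT3-ERT2 transgene, a STAT3 fusion that tamoxifen switches on. TL2i added tamoxifen, LIF and inhibitors of MEK and GSK3β, and TL-CDK8i added tamoxifen and LIF with a CDK8/19 inhibitor in place of those inhibitors. The other protocols, E-NHSM, NHSM-v, 4i/L/b, t2iLGöY and LCDM (EPS), used no tamoxifen. Primed cells were passaged mechanically in clumps and the others enzymatically as single cells, so a protocol and its passaging cannot be told apart. The labels do not say that libraries of a group came from separate cultures, and p-values therefore measure the spread between these libraries only.

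Sodium and calcium channels open when the membrane is depolarised and carry inward current, and potassium channels carry the outward current that ends or prevents firing. The pore is formed by an alpha subunit, and accessory subunits set how many channels reach the membrane and how fast they open and close. Neurons, heart and muscle use characteristic sets of these genes, while two-pore-domain and inwardly rectifying potassium channels also set the resting potential of cells that do not fire.

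Library totals ran from 7111886 to 20760914 counts, and the channel genes took between 0.0612% and 0.175% of them. Within primed cells that share was 0.0713% to 0.0740% in the J libraries and 0.0612% to 0.0670% in the K libraries. A level is given in CPM, the count scaled to a common library size with TMM factors across the 27 libraries, and 3 counts in a library, taken as its detection floor, corresponded to 0.138 to 0.422 CPM. The shallowest library, primed J3, also correlated least with the other primed libraries (median r over genes 0.949, against 0.964 to 0.971 in the rest). The summed level of 10 pluripotency genes was 6215 to 7269 CPM in primed and 7254 to 7348 CPM in E-NHSM libraries, 1915 to 2621 CPM in TL-CDK8i, and 135 to 629 CPM in the remaining protocols, in which NANOG was at or under the floor in all but TL2i. These are defining markers of the labelled cell type. All 10 were called lower in 5 of the protocols and 9 in LCDM (EPS), while E-NHSM had 4 higher and 2 lower. A list of 13 neuronal genes summed to 364 to 473 CPM in primed, 324 to 363 CPM in E-NHSM, 661 to 687 CPM in TL2i, 1038 to 1296 CPM in TL-CDK8i, 1144 to 1273 CPM in 4i/L/b, 1848 to 1983 CPM in NHSM-v, 3194 to 3614 CPM in t2iLGöY and 4662 to 5106 CPM in LCDM (EPS). From 7 to 11 of the 13 were called higher in each protocol other than E-NHSM, where 3 were higher and 3 lower. None of them was at the floor throughout a group, and the synaptic gene SYT1 was called lower in every protocol except TL-CDK8i and the mature neuronal gene RBFOX3 in TL2i, 4i/L/b and NHSM-v. A list of 7 fibroblast genes summed to 1068 to 2276 CPM in primed, 376 to 418 CPM in E-NHSM, 756 to 978 CPM in LCDM (EPS), 2900 to 5707 CPM in TL2i, 3375 to 3973 CPM in t2iLGöY, 7751 to 8326 CPM in NHSM-v, 8468 to 10981 CPM in TL-CDK8i and 11614 to 15211 CPM in 4i/L/b. A list of 6 cardiac genes summed to 7.13 to 16.3 CPM in primed and 69.5 to 81.0 CPM in TL-CDK8i. It held 21.2 to 26.9 CPM in TL2i, 12.1 to 15.4 CPM in 4i/L/b and 9.26 to 11.5 CPM in E-NHSM. The lowest sums were 4.13 to 5.78 CPM in NHSM-v, 1.22 to 3.75 CPM in t2iLGöY and 1.25 to 3.84 CPM in LCDM (EPS). The part of such cells in the channel results was not tested, and in bulk RNA fewer cells of a type and less RNA per cell cannot be told apart.

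Of the 132 channel genes, 96 averaged at least 2 CPM in at least 1 group, 58 did so in primed cells and 32 in every group. At the other end, KCNA10, KCNK16, KCNK18 and KCNU1 had no count in any library, CACNG1 never passed 3 counts, and 17 members stayed at or under the floor in all 6 primed libraries. Inwardly rectifying channels were the family with the most members after Kv1 to Kv4, with 11 of 15 reaching 2 CPM somewhere, against 15 of 17 for Kv1 to Kv4, 3 of 9 for the silent Kv subunits and 3 of 8 for the calcium channel gamma subunits. Summed over all members, the level was 709 ± 39.8 CPM (SD, n = 6) in primed and 769 ± 38.2 CPM (SD, n = 3) in E-NHSM. LCDM (EPS) had 1579 ± 52.1 CPM, t2iLGöY 1354 ± 44.1, 4i/L/b 1251 ± 40.4, NHSM-v 1072 ± 30.1, TL2i 1053 ± 89.8 and TL-CDK8i 915 ± 49.4 (SD, n = 3 each). The libraries of these last 6 protocols all lay above the highest primed library, at 752 CPM.

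The quasi-likelihood test of edgeR was run for each protocol against the same 6 primed libraries, with p-values adjusted over all genes tested, so the 7 comparisons share their control. A gene enters a comparison only with enough counts in some libraries, which means that a member near 0 in primed cells was tested only where a protocol raised it. No comparison tested 23 of the members, and 74 were tested in all 7. In E-NHSM, 11 of 86 tested members (12.8%) were higher and 4 (4.65%) lower, where 11.1% and 15.1% of all genes tested were higher and lower. NHSM-v had 24 of 83 higher (28.9%, all genes 28%) and 19 lower (22.9%, all genes 30.6%). For 4i/L/b the counts were 28 of 87 higher (32.2%, all genes 26.6%) and 15 lower (17.2%, all genes 29%). TL2i gave 24 of 94 higher (25.5%, all genes 25.6%) and 9 lower (9.57%, all genes 25.2%), and TL-CDK8i 22 of 90 higher (24.4%, all genes 22.3%) and 6 lower (6.67%, all genes 23.8%). In t2iLGöY 35 of 93 were higher (37.6%, all genes 27.1%) and 15 lower (16.1%, all genes 27.2%), and in LCDM (EPS) 37 of 98 were higher (37.8%, all genes 28.2%) and 14 lower (14.3%, all genes 28.9%). The share of channel genes called higher was thus near that of all genes in E-NHSM, NHSM-v, TL2i and TL-CDK8i, and the share called lower was below it in each of the 7. Leaving out 1 library moved some of these counts by over 1.5 times. E-NHSM had 6 and 7 members higher without its replicates 1 and 3, TL2i 15, 14 and 14 higher without replicates 1, 2 and 3, LCDM (EPS) 9 lower without replicate 3, and TL-CDK8i 3, 3 and 2 lower without replicates 1, 2 and 3. With at least 10 counts required in every library, which removes members near 0 in either group, 6 to 17 members were higher and 4 to 9 lower in each comparison. The share of all genes called under that requirement is not given, so these counts are not set against all genes.

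**Figure D1:**
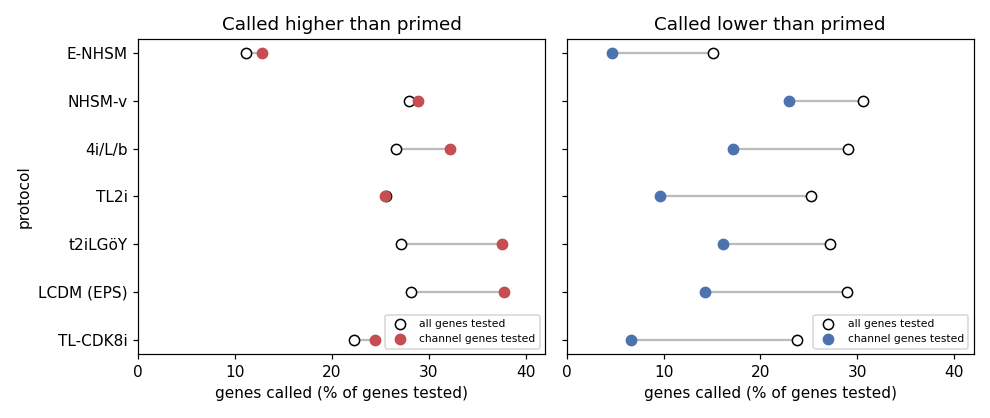
Percent of genes called higher (left) and lower (right) than primed in each protocol, for the channel genes tested (filled) and for all genes tested (open). The filled point for higher calls lies farthest to the right of the open one in t2iLGöY (37.6% against 27.1%) and LCDM (EPS) (37.8% against 28.2%).

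The median log2 fold change of tested members was 0.01 in E-NHSM, 0.43 in NHSM-v, 0.64 in 4i/L/b, 0.75 in TL2i, 0.93 in t2iLGöY, 1.07 in LCDM (EPS) and 0.51 in TL-CDK8i, where the median of all genes lay between -0.02 and 0.07. Members near 0 in primed cells enter these medians only where a protocol raised them, which moves the medians up. A median without such members is not given, so no general rise of the members is read from these values. When the 7 protocols were compared with each other over their 21 libraries, 95 of 114 members (83.3%) differed, against 90.9% of all genes. No member was higher in all 7 comparisons. CACNG4, KCNK10, KCNMA1, SCN3A and SCN3B were higher in 6, KCND2 and KCNK1 were lower in all 7, and CACNG7 and KCNK5 were lower in 6. Calls that DESeq2 also made and that no single left-out library ended were fewer, with 3 for SCN3A, 5 each for CACNG4, KCNK10, CACNG7 and KCNK5, 6 each for KCND2 and KCNK1, and all 6 for KCNMA1 and SCN3B. CACNA1A, CACNA1C, CACNA1G, KCNA1, KCNAB3, KCNG1, KCNG3, KCNH1 and KCNS3 were called in both directions, depending on the protocol. CACNA1A, CACNA1G, KCNAB3, KCNG1 and KCNG3 kept a call in each direction with DESeq2 and without any single library, while CACNA1C kept none, KCNA1 and KCNH1 kept higher calls only, and KCNS3 kept lower calls only. The libraries on which these calls rested are named with each gene.

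**Figure D2:**
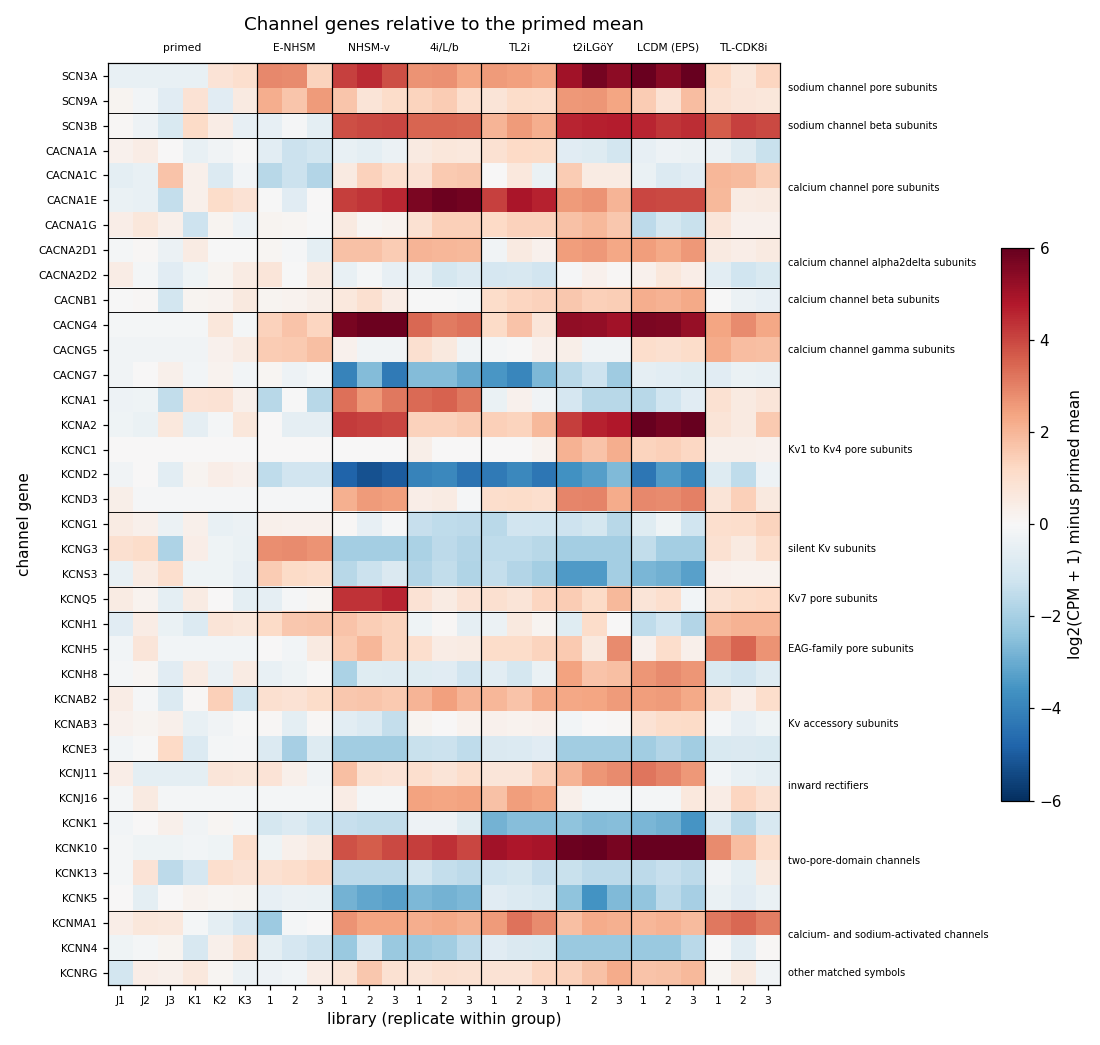
Levels of 37 named channel genes in the 27 libraries, as log2(CPM + 1) minus the mean of the primed libraries, in rows grouped by family. Red is higher and blue lower than primed. KCNK10, SCN3A and KCNA2 are darkest red in LCDM (EPS), and KCND2 is darkest blue in NHSM-v.

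Among the 10 sodium channel pore genes, SCN3A, a pore subunit best known from developing neurons, had the widest range of levels. The primed libraries held 0 CPM at the lowest, 0 at the median and 1.80 at the highest. The 3 LCDM (EPS) libraries reached 82.9, 60.3 and 93.3 CPM, and the t2iLGöY libraries 44.2, 72.5 and 55.8 CPM. Both groups lay above every library of every other protocol, the nearest being NHSM-v at 22.5, 29.8 and 18.9 CPM. The log2 fold change against primed was 7.02 ± 0.63 (SE; edgeR quasi-likelihood test, adjusted p = 3.5e-07) in LCDM (EPS), 6.59 ± 0.70 (adjusted p = 1.3e-06) in t2iLGöY and 5.28 ± 0.88 (adjusted p = 0.00011) in NHSM-v. TL-CDK8i, at 2.19, 1.21 and 2.38 CPM, did not pass the test (adjusted p = 0.3). SCN3A was also called higher in E-NHSM, 4i/L/b and TL2i, but with DESeq2 those calls were lost (adjusted p = 0.19, 0.11 and 0.13). They were lost too without E-NHSM replicate 1 or 2 (adjusted p = 0.13 and 0.12), 4i/L/b replicate 1 or 2 (0.06 and 0.064) and any 1 TL2i library (0.057 to 0.07).

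SCN9A, the pore subunit of pain-sensing neurons, was higher in t2iLGöY, at 8.83, 9.11 and 7.35 CPM, than in primed cells, where it ran from 0 to 1.90 CPM (log2 fold change 3.51 ± 0.96, adjusted p = 0.0064). Its call in E-NHSM, at 6.39, 4.11 and 8.56 CPM, was lost without replicate 1 or 3 (adjusted p = 0.082 and 0.14). SCN3B codes for an accessory beta subunit that alters channel gating. It ran from 0 to 3.20 CPM in primed cells and held 44.2, 46.7 and 48.3 CPM in t2iLGöY, 43.4, 35.9 and 40.2 CPM in LCDM (EPS) and 22.7, 31.8 and 28.4 CPM in TL-CDK8i. None of these libraries overlapped the primed range, and the log2 fold changes were 5.34 ± 0.54 (adjusted p = 9e-07), 5.12 ± 0.55 (adjusted p = 2.5e-06) and 4.54 ± 0.60 (adjusted p = 2.5e-05). In NHSM-v and 4i/L/b the gene was higher by 4.55 and 4.08 on the log2 scale and in TL2i by 2.84, whereas E-NHSM stayed at 0.269 to 0.777 CPM and did not pass the test (adjusted p = 0.55). SCN3B was thus called in TL-CDK8i, where SCN3A was not. In E-NHSM SCN3A was called and SCN3B was not, but that SCN3A call was lost with DESeq2 and without E-NHSM replicate 1 or 2. The sum of the neuronal genes listed above was highest in LCDM (EPS) and next in t2iLGöY. SCN3A and SCN3B were highest in the same protocols, but SCN3B was higher in t2iLGöY than in LCDM (EPS). The part of the neuronal genes in these levels was not tested.

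**Figure D3:**
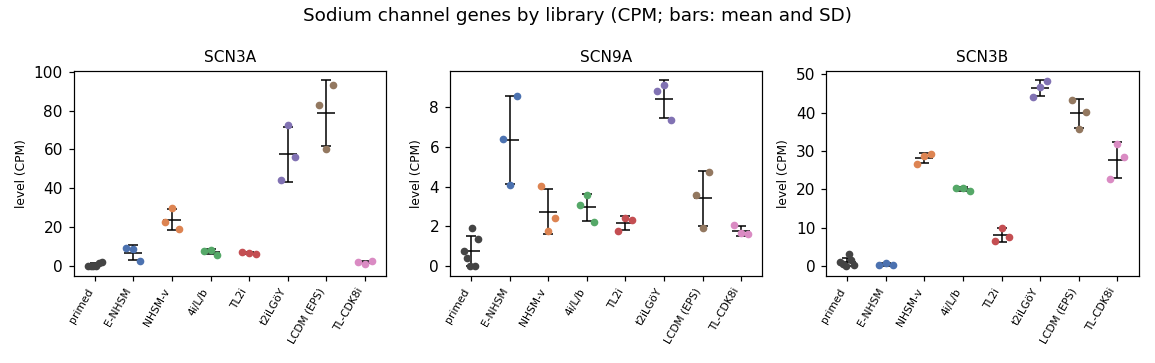
CPM of 3 sodium channel genes in each library, by group, with the mean and SD of the group. SCN3A is highest in t2iLGöY and LCDM (EPS), and SCN3B is also high in TL-CDK8i.

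CACNA1E, which forms the R-type calcium channel, rose most in 4i/L/b. Its primed level ran from 0 to 4.73 CPM with a median of 1.62, and the 4i/L/b libraries held 133, 154 and 148 CPM, more than any other library of the series (log2 fold change 5.91 ± 0.43, adjusted p = 7.4e-08). TL2i reached 44.8, 79.0 and 63.6 CPM, NHSM-v 45.8, 51.6 and 60.5 CPM and LCDM (EPS) 42.4, 41.2 and 40.3 CPM, and the 3 protocols were higher than primed by 4.77, 4.49 and 4.23 on the log2 scale. t2iLGöY, at 14.7, 16.2 and 9.87 CPM, was lower than these but above primed (log2 fold change 2.67 ± 0.73, adjusted p = 0.0059). E-NHSM and TL-CDK8i did not pass the test (adjusted p = 0.7 and 0.3).

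CACNA1A, the P/Q-type pore gene of synapses, split the protocols by direction. Primed libraries held 53.1 CPM at the lowest, 72.6 at the median and 97.9 at the highest. TL2i, at 136, 168 and 160 CPM, and 4i/L/b, at 106, 117 and 113 CPM, lay above all of them, with log2 fold changes of 1.06 ± 0.16 (adjusted p = 0.0001) and 0.55 ± 0.16 (adjusted p = 0.011). E-NHSM, at 47.2, 28.7 and 33.0 CPM, and t2iLGöY, at 44.6, 42.2 and 33.4 CPM, lay below all of them (log2 fold changes -1.03 and -0.86, adjusted p = 0.00084 and 0.0017). Calls of a lower level in NHSM-v and TL-CDK8i were lost without 1 library. For NHSM-v it was primed J1 or J2 or NHSM-v replicate 1 or 2 (adjusted p = 0.056 to 0.075), and for TL-CDK8i it was replicate 3 (0.053).

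CACNA1G, a low-threshold T-type channel, rose in t2iLGöY to 50.1, 57.3 and 45.7 CPM from a primed range of 5.45 to 22.9 CPM (log2 fold change 1.77 ± 0.31, adjusted p = 0.00022), and it also rose in TL2i and 4i/L/b. It fell in LCDM (EPS) to 4.11, 6.23 and 4.89 CPM, which overlaps the lowest primed library (log2 fold change -1.55 ± 0.41, adjusted p = 0.0052). The 2 protocols with the highest SCN3A thus lay on opposite sides of primed for CACNA1G. CACNA1C, the L-type channel of heart and smooth muscle, was uneven within primed cells, with 15.5 CPM in J3 and 1.91 to 5.19 CPM in the other 5 libraries. TL-CDK8i held 19.3, 18.1 and 13.3 CPM and E-NHSM 0.61, 1.05 and 0.485 CPM. The lower call in E-NHSM was lost without primed J3 (adjusted p = 0.067) or E-NHSM replicate 1 or 3 (0.068 and 0.076), and the higher call in TL-CDK8i without its replicate 1 or 2 (0.068 and 0.07).

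The accessory calcium channel genes followed separate patterns. CACNA2D1, the alpha2delta subunit to which gabapentin binds, ran from 17.7 to 32.6 CPM in primed cells and reached 135, 145 and 120 CPM in t2iLGöY and 136, 116 and 144 CPM in LCDM (EPS), with log2 fold changes of 2.53 ± 0.16 (adjusted p = 4.6e-09) and 2.52 ± 0.15 (adjusted p = 6.8e-09). It was also higher in 4i/L/b and NHSM-v, while TL2i and E-NHSM overlapped primed and TL-CDK8i just missed the threshold (adjusted p = 0.051). CACNA2D2 was lower in TL2i, at 5.18, 5.44 and 4.66 CPM against 6.76 to 16.7 CPM (log2 fold change -1.23 ± 0.34, adjusted p = 0.0083). Its lower calls in 4i/L/b and TL-CDK8i were lost without primed J1, K2 or K3 or 4i/L/b replicate 2 or 3 (adjusted p = 0.054 to 0.14) and without TL-CDK8i replicate 2 or 3 (0.086 and 0.065). CACNB1, the cytoplasmic beta subunit of skeletal muscle, rose in LCDM (EPS) to 53.8, 50.4 and 58.9 CPM from 4.79 to 17.6 CPM (log2 fold change 2.22 ± 0.26, adjusted p = 5.3e-06), and also in t2iLGöY and TL2i. No beta subunit gene was called lower in any protocol.

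CACNG4, a gamma-family member that also serves as an auxiliary subunit of AMPA-type glutamate receptors, went from almost no counts to a high level. It was at 0 CPM in 5 primed libraries and 0.777 in K2. NHSM-v held 57.0, 64.9 and 63.2 CPM, LCDM (EPS) 54.6, 51.7 and 40.8 CPM and t2iLGöY 42.7, 41.3 and 35.6 CPM, and none of them came near the primed libraries (log2 fold changes 8.36 ± 0.58, 8.14 ± 0.62 and 7.85 ± 0.68, adjusted p = 1.1e-08, 7.4e-08 and 1.7e-07). 4i/L/b and TL-CDK8i were higher at 8.61 to 11 and 4.47 to 6.91 CPM. The TL2i call, at 1.42, 2.57 and 0.846 CPM, was lost without primed J1, J2, K1 or K3 or any 1 TL2i library (adjusted p = 0.061 to 0.18), and E-NHSM just missed the threshold (adjusted p = 0.062). CACNG7, another gamma-family member, went down. Primed libraries held 27 to 38.7 CPM, NHSM-v 1.03, 4.42 and 0.718 CPM and TL2i 1.86, 1.17 and 4.09 CPM, with log2 fold changes of -4.00 ± 0.45 (adjusted p = 2.2e-06) and -3.76 ± 0.35 (adjusted p = 9.7e-07). It was lower in 4i/L/b by 3.08, in t2iLGöY by 1.70 and in LCDM (EPS) by 0.63 on the log2 scale, and the last of these calls was lost when all 8 groups were fitted together (adjusted p = 0.076). In TL-CDK8i the lower call was lost in that fit (adjusted p = 0.17) and without replicate 1 or 3 (0.11 and 0.06). CACNG5, which neighbours CACNG4, was higher in TL-CDK8i at 4.26, 3.18 and 2.95 CPM against at most 0.628 CPM in primed cells (log2 fold change 4.19 ± 1.16, adjusted p = 0.0086), and its E-NHSM call was lost without primed J1, J2 or K1 or any 1 E-NHSM library (0.056 to 0.14).

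**Figure D4:**
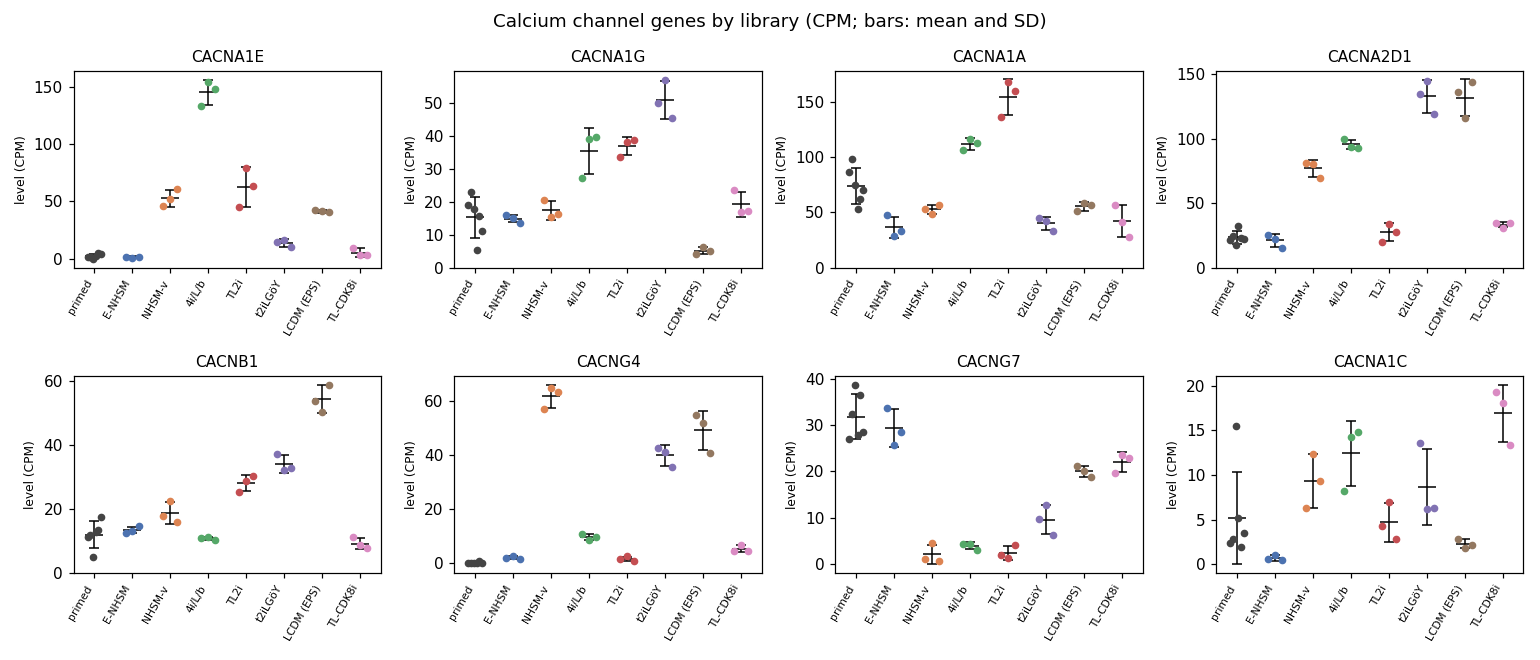
CPM of 8 calcium channel genes in each library, by group, with the mean and SD of the group. CACNA1E peaks in 4i/L/b at 133 to 154 CPM, CACNG4 rises in NHSM-v, t2iLGöY and LCDM (EPS), and CACNG7 is lowest in NHSM-v and TL2i.

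The Kv1 to Kv4 genes code for the delayed-rectifier and A-type potassium channels. Among them, KCND2 was called lower in all 7 protocols and KCND3 higher in 4. KCND2, an A-type channel of dendrites, ran from 23.4 through 39.5 to 49.1 CPM in primed cells. NHSM-v held 0.344, 0 and 0.179 CPM, at the floor, so the gene was at least 110-fold below the primed mean there. The log2 fold changes were -4.98 ± 0.33 in 4i/L/b (adjusted p = 2.5e-08), -5.01 ± 0.31 in TL2i (1.7e-08), -4.38 ± 0.36 in LCDM (EPS) (1.5e-07) and -3.47 ± 0.34 in t2iLGöY (5.1e-07), and none of the 12 libraries exceeded 5.12 CPM. E-NHSM lay between, at 12, 16 and 16.3 CPM (log2 fold change -1.36 ± 0.22, adjusted p = 0.00016). TL-CDK8i, at 21.1, 12 and 29.8 CPM, overlapped primed, and its call was lost without replicate 1 or 2 (adjusted p = 0.058 and 0.093). KCND3, an A-type channel also found in heart, stayed at or under the floor in all primed libraries, so its change is given as a bound. It was at least 16.4-fold higher in LCDM (EPS), 14.3-fold in t2iLGöY, 10.9-fold in NHSM-v and 2.83-fold in TL2i, and the TL2i call was lost without replicate 2 (adjusted p = 0.051). KCND3 was not tested in E-NHSM, 4i/L/b and TL-CDK8i, and it had no count in E-NHSM.

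KCNA2, a Kv1 channel of axons, ran from 0 to 1.35 CPM in primed cells and reached 91.5, 78.2 and 100 CPM in LCDM (EPS), 25.3, 35.0 and 40.4 CPM in t2iLGöY and 25.8, 23.9 and 22.3 CPM in NHSM-v. The 3 groups did not overlap primed, and the log2 fold changes were 7.45 ± 0.45 (adjusted p = 6.5e-09), 6 ± 0.62 (adjusted p = 1.1e-06) and 5.42 ± 0.67 (adjusted p = 5.5e-06). The TL2i call, at 2.69 to 4.66 CPM, was lost without primed J1, J2 or K2 or any 1 TL2i library (adjusted p = 0.06 to 0.16). KCNA1, a related axonal channel, was high in another pair of protocols, at 30.2, 18 and 27.4 CPM in NHSM-v and 32.4, 34.8 and 27.2 CPM in 4i/L/b against 0.141 to 4.73 CPM in primed cells (log2 fold changes 3.20 ± 0.54 and 3.52 ± 0.50, adjusted p = 0.00011 and 4.5e-05). t2iLGöY, with 0.543 CPM in replicate 1 and 0 in the others, was called lower, but not without primed J1, J2, K1, K2 or K3 or its replicate 2 or 3 (adjusted p = 0.054 to 0.14). KCNC1, a fast delayed rectifier of fast-spiking neurons, had no count in any primed library and was at least 7.16-fold higher in t2iLGöY, at 3.19, 2.28 and 3.60 CPM, while LCDM (EPS), at 1.56, 1.66 and 1.38 CPM, was at least 3.63-fold higher. Over the family, 7 of 15 tested genes were higher and 2 lower in t2iLGöY (all genes 27.1% and 27.2%), 6 of 15 and 1 in LCDM (EPS) (28.2% and 28.9%), 5 of 12 and 2 in NHSM-v (28% and 30.6%), 2 of 11 and 2 in 4i/L/b (26.6% and 29%), 3 of 14 and 1 in TL2i (25.6% and 25.2%), 2 of 12 and 1 in TL-CDK8i (22.3% and 23.8%), and 1 of 11 in each direction in E-NHSM (11.1% and 15.1%).

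The silent Kv subunits form no channel alone and modify others. KCNG1, KCNG3 and KCNS3 were the members of this group with at least 2 CPM anywhere, and all 3 were called lower in every protocol except E-NHSM, NHSM-v and TL-CDK8i. KCNG3 ran from 0.141 to 7.62 CPM in primed cells, rose to 27.3, 27.8 and 25.6 CPM in E-NHSM (log2 fold change 2.77 ± 0.52, adjusted p = 0.00053) and had no count in any NHSM-v or t2iLGöY library. With the primed mean set against the floor, its decrease was at least 18.2-fold in t2iLGöY, 11.4-fold in NHSM-v, and for 4i/L/b 10.7-fold. The lower calls in TL2i and LCDM (EPS) were lost without replicate 3 of each (adjusted p = 0.057 and 0.051). KCNS3 held 6.37 to 19.9 CPM in primed cells and 0.556, 0.415 and 0.106 CPM in LCDM (EPS) (log2 fold change -4.78 ± 0.67, adjusted p = 3e-05). Its higher call in E-NHSM, at 29.6, 22.2 and 20.6 CPM, and its lower call in NHSM-v were lost without replicate 1 of each (adjusted p = 0.082 and 0.051). KCNG1 was higher in TL-CDK8i, at 63.0, 64.7 and 78.1 CPM against 22.7 to 43.9 CPM (log2 fold change 1.07 ± 0.21, adjusted p = 0.00089), and lower in 4i/L/b, TL2i and t2iLGöY by 1.67, 1.42 and 1.39 on the log2 scale. In LCDM (EPS), at 18.1, 25.9 and 12.8 CPM, the lower call was lost without primed J1, J2 or K1 or its replicate 1 or 3 (adjusted p = 0.071 to 0.21).

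No Kv7 gene was called lower in any protocol. KCNQ5, which contributes to the M-current that damps repetitive firing, was called in NHSM-v alone, at 29.3, 29.8 and 35.6 CPM against 0 to 1.12 CPM in primed cells (log2 fold change 5.63 ± 0.59, adjusted p = 8.8e-07). Its highest library elsewhere was a t2iLGöY library at 4.83 CPM. In the EAG family, KCNH8 rose in LCDM (EPS) to 38.4, 43.3 and 38.5 CPM and in t2iLGöY to 32.5, 19.6 and 21.2 CPM, from 2.96 to 7.90 CPM in primed cells (log2 fold changes 2.89 ± 0.27 and 2.17 ± 0.34, adjusted p = 7e-07 and 6.7e-05). KCNH5 was highest in TL-CDK8i, at 7.60, 11.6 and 6.18 CPM against 0 to 0.859 CPM (log2 fold change 5.80 ± 1.15, adjusted p = 0.00084). The KCNH5 calls in NHSM-v and t2iLGöY were lost without any 1 NHSM-v library (adjusted p = 0.055 to 0.092) and without t2iLGöY replicate 3 (0.16). KCNH1, which is also expressed in many tumours, was higher in TL-CDK8i at 14.2, 15.5 and 16 CPM against 1.21 to 5.72 CPM (log2 fold change 2.14 ± 0.47, adjusted p = 0.0019). Its higher calls in E-NHSM and NHSM-v were lost without replicate 2 or 3 of the first (adjusted p = 0.1 and 0.12) and replicate 1 or 2 of the second (0.079 and 0.054), and the lower call in LCDM (EPS), at 0.389, 0.692 and 0.159 CPM, without replicate 1 or 3 (0.051 and 0.062).

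Of the accessory Kv subunits, 5 of 8 tested were higher and 1 lower in LCDM (EPS) (all genes 28.2% and 28.9%), 4 of 7 and 1 in 4i/L/b (26.6% and 29%), 3 of 8 and 0 in TL2i (25.6% and 25.2%), 3 of 9 and 1 in t2iLGöY (27.1% and 27.2%), 2 of 6 in each direction in NHSM-v (28% and 30.6%), 1 of 7 and 0 in TL-CDK8i (22.3% and 23.8%), and 0 of 6 in E-NHSM (11.1% and 15.1%). KCNAB2, a cytoplasmic beta subunit, ran from 0.628 to 8.40 CPM in primed cells and held 19.0, 19.2 and 15.9 CPM in LCDM (EPS) and 16.6, 17.0 and 19.7 CPM in t2iLGöY (log2 fold changes 2.55 ± 0.56 and 2.53 ± 0.58, adjusted p = 0.0014 and 0.0017). It was also higher in 4i/L/b. Calls in NHSM-v and TL2i were lost without primed J2 or K1 or any 1 NHSM-v library (adjusted p = 0.058 to 0.11) and without TL2i replicate 3 (0.051). KCNAB3 rose in LCDM (EPS) to 32.6, 39.3 and 40.7 CPM and fell in NHSM-v to 11.1, 9.46 and 5.83 CPM, from 12.5 to 21.8 CPM in primed cells (log2 fold changes 1.11 ± 0.20 and -1.07 ± 0.30, adjusted p = 0.00032 and 0.006). KCNE3, a small subunit that holds KCNQ1 open in epithelia, held 8.87 CPM in primed J3 and 1.38 to 3.22 CPM in the other 5 primed libraries. It had no count in NHSM-v and t2iLGöY, at least 10.7-fold and 17.1-fold below the primed mean, and held 0, 0.277 and 0 CPM in LCDM (EPS). The lower call in 4i/L/b was lost without replicate 1 or 3 (adjusted p = 0.05 and 0.063), the first of these lying just over the threshold.

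Of the inward rectifiers, none was called lower in any protocol. KCNJ16 was at 0 CPM in 5 primed libraries and 0.537 CPM in J2, and it rose in 4i/L/b to 4.73, 4.55 and 4.74 CPM and in TL2i to 2.69, 5.21 and 4.51 CPM (log2 fold changes 5.54 ± 1.21 and 5.45 ± 1.22, adjusted p = 0.0015 and 0.0021). In other protocols its highest library held 1.64 CPM. KCNJ11, the pore of the ATP-sensitive potassium channel of pancreatic beta cells, rose in LCDM (EPS) to 12.8, 11.1 and 8.24 CPM from 0 to 1.48 CPM (log2 fold change 4.01 ± 0.94, adjusted p = 0.0023). Its higher call in t2iLGöY, at 5.23, 8.51 and 9.94 CPM, was lost without replicate 3 (adjusted p = 0.052).

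The two-pore-domain channels, which carry background potassium current, were split by direction. KCNK10, a mechanically gated member, ran from 0 to 0.111 CPM in 5 primed libraries and was 1.53 CPM in K3. It held 79.8, 84.3 and 89.9 CPM in LCDM (EPS), 70.01, 85.5 and 61.02 CPM in t2iLGöY and 38.2, 34.2 and 35.7 CPM in TL2i, with log2 fold changes of 8.12 ± 0.57 (adjusted p = 3.1e-08), 7.88 ± 0.62 (adjusted p = 5.5e-08) and 6.86 ± 0.72 (adjusted p = 3.2e-06). NHSM-v and 4i/L/b followed at 13.9 to 24.5 CPM. In TL-CDK8i, at 7.60, 3.40 and 1.52 CPM, it was called higher but not without replicate 1 or 2 (adjusted p = 0.16 and 0.066), and E-NHSM held at most 0.754 CPM. KCNK1, a weakly conducting member, and KCNK5, an acid-sensitive member of epithelia, went down. KCNK1 ran from 22.1 to 32.1 CPM in primed cells and held 2.89, 2.63 and 1.28 CPM in LCDM (EPS), 2.64, 3.51 and 3.46 CPM in TL2i and 3.94, 3.35 and 3.46 CPM in t2iLGöY (log2 fold changes -3.45 ± 0.31, -3.00 ± 0.24 and -2.80 ± 0.26). It fell less in NHSM-v, TL-CDK8i and E-NHSM, by 1.60, 1.21 and 1.08 on the log2 scale. The 4i/L/b call, at 20.7, 20.3 and 15.1 CPM, was lost without primed J2, J3, K2 or K3 or any 1 4i/L/b library (adjusted p = 0.054 to 0.2) and with DESeq2 (0.089).

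KCNK5 ran from 24.3 to 42.1 CPM in primed cells and held 4.36, 3.36 and 2.96 CPM in NHSM-v, 4.83, 4.31 and 4.74 CPM in 4i/L/b and 6.04, 2.14 and 4.97 CPM in t2iLGöY, and these libraries lay below all primed ones (log2 fold changes -3.44 ± 0.26, -3.06 ± 0.23 and -3.05 ± 0.32). LCDM (EPS) and TL2i were lower by 2.04 and 0.87 on the log2 scale. The TL-CDK8i call was lost without any 1 of its libraries (adjusted p = 0.061 to 0.12). KCNK13, a channel of microglia, ran from 0 to 5.01 CPM in primed cells and had no count in NHSM-v, at least 7.79-fold below the primed mean. It was at least 12.4-fold below that mean in t2iLGöY and 16.1-fold in LCDM (EPS), though those calls were lost without t2iLGöY replicate 2 or 3 (adjusted p = 0.074 and 0.076) and LCDM (EPS) replicate 1 or 3 (0.052 and 0.051). The 4i/L/b call was lost without primed J2, K2 or K3 or 4i/L/b replicate 2 or 3 (adjusted p = 0.054 to 0.12).

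KCNMA1 codes for the pore of the large-conductance calcium-activated (BK) channel, which is abundant in smooth muscle and neurons. It ran from 1.26 to 6.33 CPM in primed cells and held 39.7, 47.5 and 36.8 CPM in TL-CDK8i, 25.9, 41.6 and 31.1 CPM in TL2i and 27.8, 22 and 22.5 CPM in NHSM-v. Every library of the 6 protocols other than E-NHSM lay above all primed libraries, and the log2 fold changes of TL-CDK8i, TL2i and NHSM-v were 3.38 ± 0.38 (adjusted p = 6.1e-06), 3.09 ± 0.40 (adjusted p = 2.4e-05) and 2.58 ± 0.43 (adjusted p = 9.5e-05). E-NHSM held 0, 3.22 and 3.66 CPM and did not pass the test (adjusted p = 0.6). A list of 4 smooth muscle genes summed to 1052 to 1440 CPM in primed, 3563 to 4903 CPM in TL-CDK8i, 4360 to 4712 CPM in NHSM-v, 2755 to 2894 CPM in 4i/L/b, 1424 to 1521 CPM in TL2i, 584 to 678 CPM in E-NHSM, 293 to 389 CPM in t2iLGöY and 81.1 to 94.1 CPM in LCDM (EPS). KCNMA1 was higher than in primed by 2.30, 2.23 and 2.16 on the log2 scale in 4i/L/b, t2iLGöY and LCDM (EPS). The part of smooth muscle cells in its level was not tested. KCNN4, the intermediate-conductance channel of blood cells and epithelia, ran from 1.47 to 7.18 CPM in primed cells and had no count in t2iLGöY, at least 18.8-fold below the primed mean. It was also lower in 4i/L/b and LCDM (EPS), and its NHSM-v call was lost without primed K2 or K3 or NHSM-v replicate 1 or 3 (adjusted p = 0.055 to 0.095). KCNRG, a soluble regulator of Kv channels that matched the symbol rule without being a channel, rose in t2iLGöY to 17.7, 23.5 and 32.3 CPM and in LCDM (EPS) to 22.7, 23.3 and 26.5 CPM from 2.33 to 10.2 CPM (log2 fold changes 1.89 ± 0.37 and 1.87 ± 0.35, adjusted p = 0.00057 and 0.00036). Its calls in NHSM-v and TL2i were lost without NHSM-v replicate 2 (adjusted p = 0.2) and without primed K2 or K3 or any 1 TL2i library (0.061 to 0.17).

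**Figure D5:**
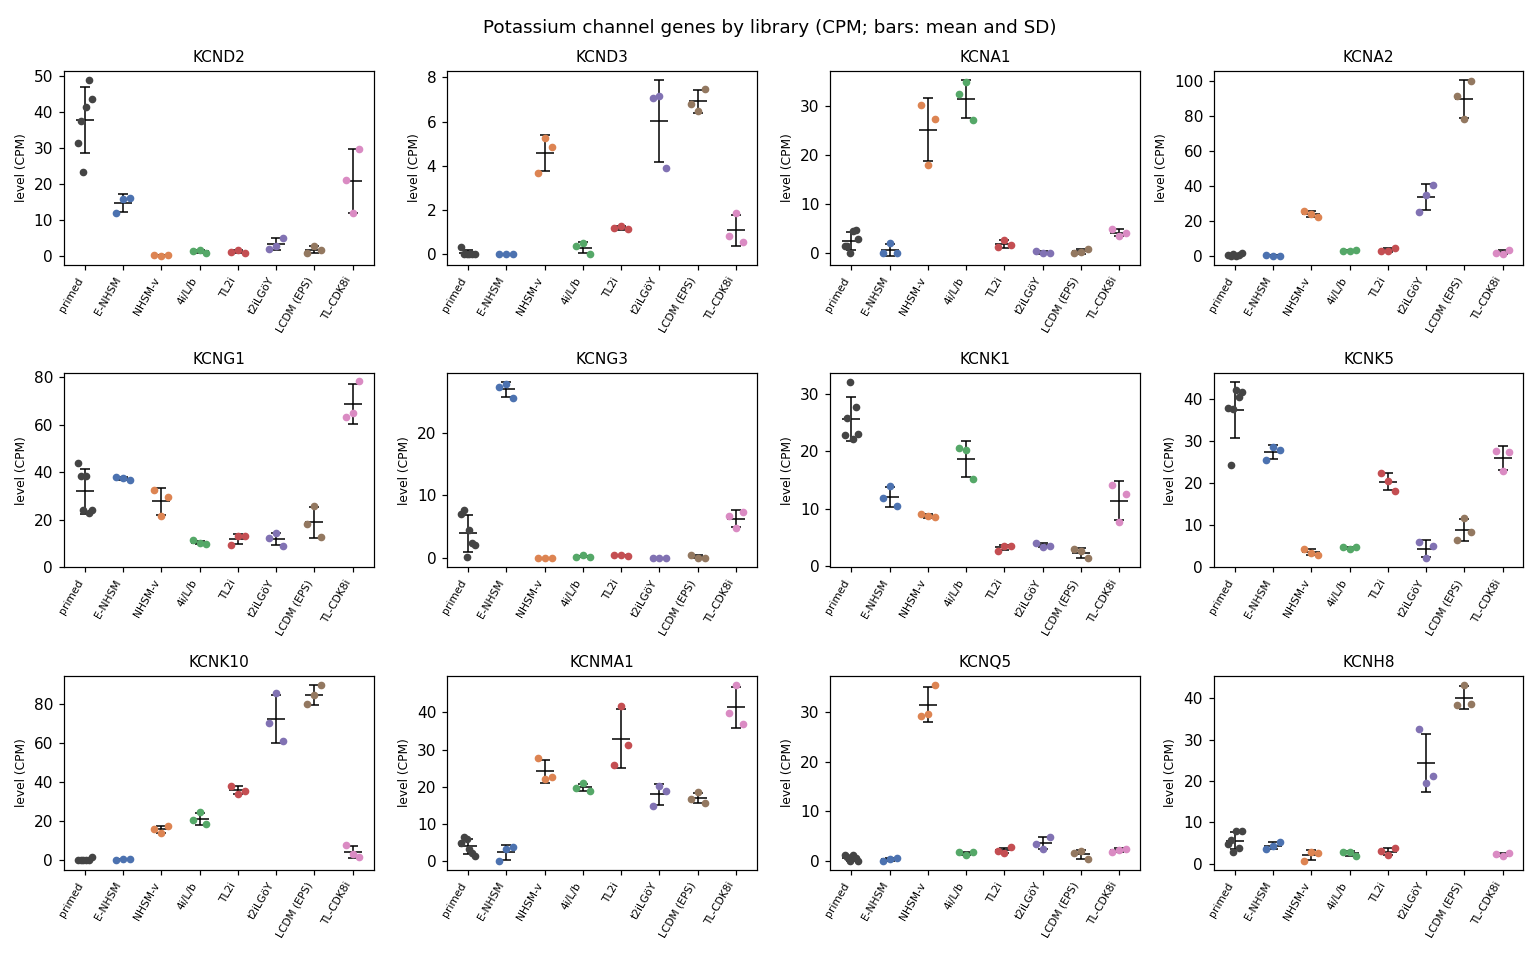
CPM of 12 potassium channel genes in each library, by group, with the mean and SD of the group. KCND2 and KCNK1 are highest in primed cells, KCNG3 in E-NHSM, KCNQ5 in NHSM-v, KCNA2 and KCNK10 in LCDM (EPS), and KCNMA1 and KCNG1 in TL-CDK8i.

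Genes that work with these channels but do not match the symbol rule were read from separate lists. Of 17 channel partners (ankyrins, FGF11 to FGF14, DPP6 and DPP10, the sulfonylurea receptors and others), 10 of 14 tested were higher and 3 lower in t2iLGöY, 8 of 14 and 3 in LCDM (EPS), 5 of 14 and 4 in TL2i, 4 of 12 and 4 in NHSM-v, 3 of 13 and 6 in 4i/L/b, 2 of 13 and 4 in E-NHSM, and 1 of 13 and 4 in TL-CDK8i. The shares of all genes were 27.1% higher and 27.2% lower in t2iLGöY, 28.2% and 28.9% in LCDM (EPS), 25.6% and 25.2% in TL2i, 28% and 30.6% in NHSM-v, 26.6% and 29% in 4i/L/b, 11.1% and 15.1% in E-NHSM, and 22.3% and 23.8% in TL-CDK8i. DPP10, which brings Kv4 channels to the membrane, was higher in t2iLGöY, LCDM (EPS) and TL2i. KCND3 was called higher in those protocols and in NHSM-v, where DPP10 was not called. KCND2, another Kv4 gene, was called lower in all 7 protocols. DPP6 was higher in t2iLGöY and LCDM (EPS), but also in E-NHSM and 4i/L/b, where KCND3 was not tested. ABCC8, the partner of KCNJ11 in the ATP-sensitive channel, was higher in t2iLGöY and LCDM (EPS), as KCNJ11 was. Of 28 related cation channels (HCN, NALCN, CNG, TPC, TRPC, TRPM and HVCN1), 14 to 20 were tested in each comparison, of which 1 to 6 were higher and 1 to 5 lower (all genes 11.1% to 28.2% higher and 15.1% to 30.6% lower). TRPC1, a receptor-operated channel, was higher in every protocol except E-NHSM.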

How the data were processed

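Strand-marking mRNA libraries were read from one end. The authors made the deposited read counts per gene, with bcl2fastq, cutadapt, HISAT2 and HTSeq named in the submitters' processing notes. Genome build, annotation and counting settings are not given in the sources used here. Members were found by symbol, all 132 matched RefSeq names (assembly T2T-MMU8v2.0, used for names and neighbours only), and members and lists were chosen with earlier results of these data known. Counts were tested in edgeR 4.0.16 (R 4.3.3; limma 3.58.1) with TMM factors, filterByExpr and quasi-likelihood F tests, each protocol against primed on their own libraries and the 7 protocols against each other, with Benjamini-Hochberg adjustment over all genes tested and a threshold of 0.05. Log2 fold changes carry a prior count of 0.125. Where every library of a group had at most 3 counts, the fold is a bound against that floor, which covers counting error only. It sets the mean of the other group against the highest floor among the libraries of the group. Single libraries of the other group can give a smaller fold. Named genes were, in any comparison, the 3 that rose most and the 3 that fell most with at least 2 CPM in either group, those called one way in at least 6 comparisons, those called both ways with a log2 change of at least 1 in each, and the gene of widest range in each family. The values of 1 gene that the rule names are not reported here, though counts include it. The scripts were tested on simulated counts. Alternatives were DESeq2 1.42.0, upper-quartile scaling, no filter, at least 10 counts in every library, all 8 groups in one fit, a minimum log2 change of 1, each primed column letter alone, each library left out, and the replicate number as a block. Gene spans of CACNA1C, CACNA2D2, CACNG7, KCNAB2 and KCND2 overlap DCP1B, RASSF1, NDUFA3, NPHP4 and TSPAN12 in RefSeq, those of KCNMA1, KCNS3 and SCN9A overlap unnamed loci, and whether counting used strand is not stated, so reads could be shared.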

Additional observations from a re-analysis of the deposited data

Results flagged for a closer look

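Of the 36 named channel genes that could be examined, 7 had 1 primed library standing apart from the other 5, by the gap to its nearest neighbour over the group's range (above 0.625). For normally distributed values chance gives about 1 in 20 groups of this size. That rate does not apply to values near 0, where a count in 1 library alone sets it apart. CACNA1C was 15.5 CPM in primed J3 with the next library at 5.19 CPM, and KCNE3 was 8.87 CPM in J3 with the next at 3.22 CPM. J3 was also the shallowest library. KCNK10 was 1.53 CPM in K3 with the next at 0.111 CPM. CACNG4 in K2 (0.777 CPM), KCNH5 in J2 (0.859 CPM) and KCNJ16 in J2 (0.537 CPM) had counts where the other 5 primed libraries had none. KCNK5 was lowest in J2, at 24.3 CPM, with the next library at 37.6 CPM.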

How the results depend on the processing

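Of 4213 values of named genes recomputed under the alternatives (242 gene and comparison pairs), 3942 kept direction and side of the threshold, 183 lost the call, 88 gained one and 0 reversed. Of 159 calls of named genes, 42 were lost when at least 1 single library was left out and 14 with a minimum log2 change of 1. With the J primed libraries alone 11 were lost, and with the K libraries alone 9. DESeq2, no filter and all 8 groups in one fit lost 5 each, and upper-quartile scaling lost 1. With at least 10 counts in every library, 1 was lost of the calls still tested, and how many were still tested is not given. Requiring at least 10 counts in every library, which removes members near 0 in either group, left 6 members higher in E-NHSM (11 as reported), 12 higher and 8 lower in NHSM-v (24 and 19), 17 and 8 in 4i/L/b (28 and 15), 14 higher in TL2i (24), 14 and 7 in t2iLGöY (35 and 15), 17 and 7 in LCDM (EPS) (37 and 14), 9 higher in TL-CDK8i (22) and 36 differing among protocols (95). Neither the members tested nor the share of all genes called under that requirement is given, so these counts are not set against all genes. With all 8 groups in one fit, 7 members were lower in E-NHSM (4) and 34 higher in TL-CDK8i (22), and with a minimum log2 change of 1, 2 were lower in TL-CDK8i (6). Leaving out 1 library gave 6 to 12 higher and 3 to 6 lower in E-NHSM, 14 to 28 higher in TL2i, 9 to 15 lower in LCDM (EPS), and 2 to 8 lower in TL-CDK8i. The libraries that moved these by over 1.5 times were E-NHSM 1 and 3 (6 and 7), TL2i 1, 2 and 3 (15, 14 and 14), LCDM (EPS) 3 (9) and TL-CDK8i 1, 2 and 3 (3, 3 and 2). The replicate numbers did not pair the libraries. Deviations of same-numbered libraries correlated at -0.12 to 0.0604 among protocols, where 1 of 21 libraries correlated best with its own number, and at -0.0517 to 0.0498 between primed and protocol libraries. Among protocols, the replicate block gave 94 members differing (95 without it). Against primed, a replicate block on the number in the primed column names, chosen after seeing the data, gave 11 higher and 3 lower in E-NHSM, 24 and 18 in NHSM-v, 28 and 12 in 4i/L/b, 22 and 9 in TL2i, 35 and 13 in t2iLGöY, 36 and 13 in LCDM (EPS) and 21 and 6 in TL-CDK8i, and 7 named calls were lost. The cause of these differences was not tested. Depth limits members under about 0.422 CPM in the shallowest library.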

Other observations

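Genes of the repressor complex that silences neuronal genes outside neurons (REST, RCOR1, SIN3A, HDAC1, HDAC2, KDM1A and EHMT2) were tested in each comparison. REST, its DNA-binding member, was lower in NHSM-v, 4i/L/b, t2iLGöY and LCDM (EPS), and SIN3A was lower in all 7 protocols. Of these 7 genes, 6 were lower in NHSM-v (30.6% of all genes tested) and in 4i/L/b (29%), 5 in t2iLGöY (27.2%), 4 in TL-CDK8i (23.8%), 3 in TL2i (25.2%) and in LCDM (EPS) (28.9%), and 1 in E-NHSM (15.1%).

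In the RefSeq gene order, 14 runs of adjacent members hold 33 of the channel genes, and neighbours often had different counts of calls. CACNG4 was higher in 6 comparisons (5 with DESeq2 and without any single library), its neighbour CACNG5 in 2 (1 so kept), and CACNG1 stayed at the floor. KCNA1 was higher in 2 comparisons and lower in 1 (2 and 0 kept), and KCNA5 beside it was lower in 2. SCN3A was higher in 6 comparisons (3 kept) and SCN2A in 1. KCNA3 and KCNA2, which are adjacent, were each higher in 4 (3 kept for KCNA2, not computed for KCNA3 and SCN2A).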
